A study of Mus musculus with 6 samples.

Results

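Serine synthesis and folate one-carbon metabolism were examined through 9 enzymes, Phgdh, Psat1, Psph, Shmt1, Shmt2, Mthfd1, Mthfd1l, Mthfd2 and Aldh1l2. The set was chosen with earlier results of these data known. Its rows were found by gene symbol, and each symbol matched 1 of the 19730 rows of the expression table. RNA-Seq libraries were made from primary cultures of mouse mesangial cells, which hold up the capillary loops of the kidney's filtering unit and can contract. There were 3 Control libraries and 3 libraries of cells given TGF-β1 (transforming growth factor beta 1, a cytokine that stimulates matrix production in scarring tissue) at 10 ng/ml for 72 h. All cells, controls included, were grown in high glucose (25.5 mM) with 20% fetal bovine serum and used at passage 3 to 6. The labels name neither a vehicle for the controls nor separate animals or cultures, so p-values measure only the spread between these libraries, which may be technical. Levels are in FPKM, mapped fragments scaled to transcript length and to the size of the library, a unit that allows genes of different length to be compared.

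Serine is made in the cytosol from the glycolytic intermediate 3-phosphoglycerate by Phgdh, Psat1 and Psph, acting in that order. Serine hydroxymethyltransferases then move a single carbon from serine to the folate cofactor and release glycine, Shmt2 in mitochondria and Shmt1 in the cytosol. In mitochondria Mthfd2 oxidizes the folate-bound carbon, Mthfd1l releases it as formate, and Aldh1l2 can burn it to carbon dioxide with production of NADPH. In the cytosol the enzyme Mthfd1 takes up formate and carries out the same interconversions, which feed purine, thymidylate and methionine synthesis. Collagen is rich in glycine, which is one reason why this pathway is studied in matrix-producing cells.

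The depth of the libraries, recovered from the steps of the lowest FPKM values, ranged from about 10130000 to 11050000 mapped fragments. At that depth the 9 enzymes rested on roughly 81 to 2187 fragments per library. The Control replicate 2 and TGF-β1 replicate 2 libraries stood apart from the others, in that their deviations from the group means had the highest correlation across tested genes of any control and treated pair (r = 0.23). Of 10 mesangial markers, 4 were at 3 FPKM or more in every library (Pdgfrb, Acta2, Tagln and Myl9), while Itga8, Des and Thy1 were under 1 FPKM in all. The 10 summed to 1688 to 1950 FPKM in Control and 6094 to 7075 FPKM in treated cells, most of it Acta2, Tagln and Myl9, whereas Pdgfrb was at 32.0 to 41.1 FPKM and 28.4 to 29.9 FPKM and Foxd1 at 2.32 to 2.63 FPKM and 0.393 to 0.685 FPKM. The summed level of the 5 tubular epithelial markers in the table was 126 to 161 FPKM in Control and 7.39 to 8.71 FPKM with TGF-β1, most of it Cdh16. Aqp1 was at 9.06 to 12.2 FPKM in Control and 0.0761 to 0.244 FPKM with TGF-β1, and Lrp2 at 1.09 to 1.93 FPKM and 0.212 to 0.245 FPKM. Cubn went the other way, from 0.587 to 0.728 FPKM to 1.23 to 1.32 FPKM. The 5 macrophage markers in the table summed to 87.0 to 114 FPKM and 9.03 to 11.3 FPKM, most of it Cd14, with Ptprc and Itgam under 1 FPKM throughout and Cd68 overlapping between the groups. Csf1r was at 5.52 to 7.37 FPKM in Control and 0.234 to 0.525 FPKM with TGF-β1. The 7 podocyte markers summed to 40.4 to 45.2 FPKM and 16.5 to 16.8 FPKM, and the 6 endothelial markers in the table to at most 1.53 FPKM. The part of these shifts in the results below was not tested, and in bulk RNA fewer cells of a type and less RNA per cell cannot be told apart.

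TGF-β1-treated cells had more RNA of the serine synthesis enzymes and of all 4 mitochondrial folate enzymes of the set. Of its cytosolic folate enzymes, Shmt1 fell and Mthfd1 was not called. All 9 enzymes passed the filter of a mean of 1 FPKM and 8 of the 9 changed (limma, adjusted p under 0.05), where 48.1% of the 11898 rows tested changed. Of these 8, 7 were upregulated (24.5% of all rows tested) and 1, Shmt1, was downregulated (23.6% of all rows tested). A rise of at least 1 on the log2(FPKM + 1) scale was seen in 5 of the 9 enzymes and in 6.56% of all rows. The median change of the 9 was 1.58 on that scale, against -0.017 over all rows. The Control and TGF-β1 values did not overlap in 8 of the 9 enzymes, and in 59.4% of all rows. Because the set was chosen with earlier results of these data known, these counts only describe it, and its excess over all rows was not tested. Scaling every library to a common sum over rows of 1 to 1000 FPKM moved the median change of all genes to -0.15 and turned the split of all calls from 2911 up and 2810 down to 2116 up and 3611 down. In that scaling the same 7 enzymes were upregulated, and the change of Mthfd1 was 0.00088.

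**Figure D1:**
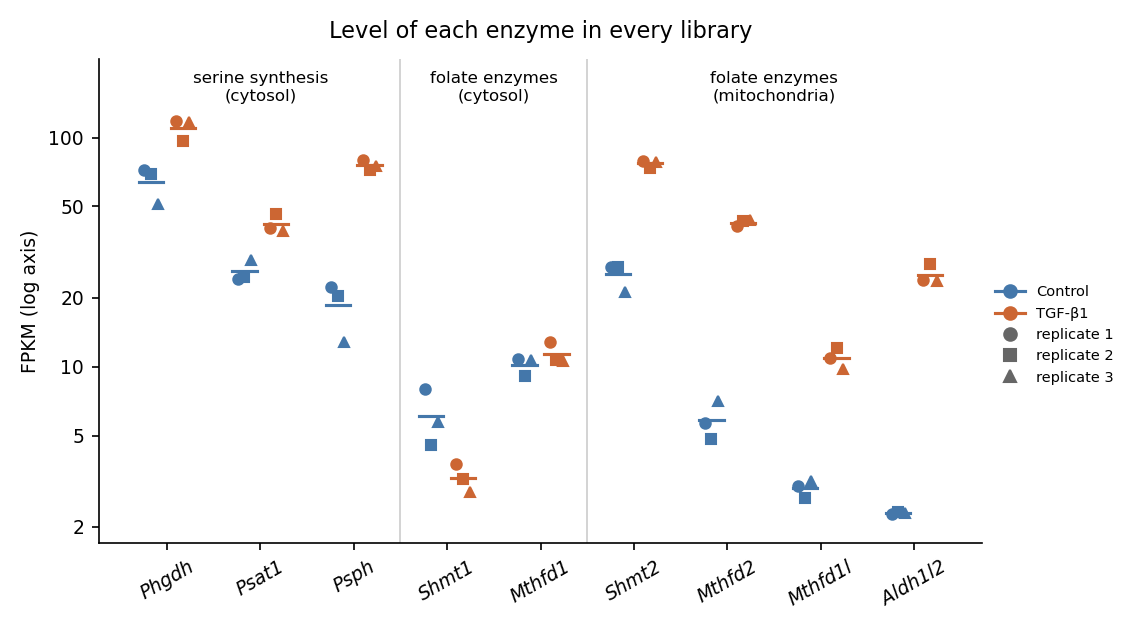
Level of each of the 9 enzymes (FPKM, log axis) in the 3 Control and 3 TGF-β1 libraries; symbols mark the replicate and horizontal bars the group mean. The groups are apart for every enzyme except Mthfd1, and Shmt1 is the enzyme whose TGF-β1 values lie below Control.

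The serine synthesis enzymes were considered first. Phgdh oxidizes 3-phosphoglycerate in the committed step of serine synthesis. It lies on mm9 chromosome 3 (98117093 to 98143913) and had the highest level of the 9 in both groups. It was at 71.9, 69.0 and 51.2 FPKM in Control replicates 1 to 3 and at 118, 96.6 and 117 FPKM in TGF-β1 replicates 1 to 3. Every treated library was above every control, and Control replicate 3 was the lowest. The mean rose from 64.1 ± 11.2 to 110 ± 11.9 FPKM (SD, n = 3), 1.72-fold, which is 0.78 on the log2(FPKM + 1) scale (SE 0.16, adjusted p 0.00729 by limma).

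Psat1, the aminotransferase that supplies the nitrogen of serine, lies on chromosome 19 (15979168 to 16021827). Its level was 24.1, 24.7 and 29.2 FPKM in the Control libraries and 40.2, 46.5 and 39.1 FPKM in the TGF-β1 libraries, again without overlap. The mean increased 1.61-fold, or 0.67 in log2 units (SE 0.11, adjusted p 0.00353 by limma), which was the smallest of the 7 increases. A pseudogene, Gm3329, lies within it on the opposite strand. It is not stated whether strand was used when fragments were assigned.

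Psph, the phosphatase that completes serine synthesis, lies on chromosome 5 (130271434 to 130293129) and rose most of the 3. It was at 22.4, 20.3 and 12.9 FPKM in Control, and 79.7, 72.0 and 75.3 FPKM under TGF-β1, so the lowest treated library exceeded the highest control more than the controls differed among themselves. The mean increased 4.09-fold, from 18.5 ± 5.0 to 75.7 ± 3.86 FPKM, or 2.01 in log2 units (SE 0.20, adjusted p 4.41e-04 by limma). The 95% intervals of the log2 changes were 1.53 to 2.49 for Psph, 0.41 to 1.16 for Phgdh and 0.40 to 0.94 for Psat1, so the interval of Psph lay above those of the other enzymes of the branch. The summed level of the 3 was 118, 114 and 93.3 FPKM in Control, against 238, 215 and 231 FPKM under TGF-β1.

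The 4 mitochondrial folate enzymes rose more than Phgdh and Psat1, in that each of their 95% intervals, from 1.30 upwards on the log2 scale, lay above those given for Phgdh and Psat1. Shmt2, which splits serine into glycine and a folate-bound carbon, lies on chromosome 10 (126954195 to 126959491). It was at 27.3, 27.2 and 21.2 FPKM in Control, and 79.1, 73.8 and 78.3 FPKM under TGF-β1. The treated libraries lay close together and well above the controls. The mean rose 3.05-fold, from 25.2 ± 3.48 to 77.0 ± 2.88 FPKM, or 1.58 in log2 units (SE 0.11, adjusted p 1.41e-04 by limma). Its end overlaps that of Ndufa4l2 on the opposite strand by 14 bases.

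Mthfd2, the mitochondrial dehydrogenase and cyclohydrolase, lies on chromosome 6 (83255685 to 83267600). Its level was 5.68, 4.83 and 7.09 FPKM in Control and 41.0, 43.1 and 43.5 FPKM in treated cells. The mean rose 7.25-fold, to 42.5 ± 1.35 FPKM from 5.87 ± 1.14 FPKM, or 2.68 in log2 units (SE 0.13, adjusted p 3.37e-05 by limma). In Control it was level with the cytosolic Shmt1, and with TGF-β1 it was level with Psat1.

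Mthfd1l, the synthetase that releases formate from mitochondrial folate, lies on chromosome 10 (6179460 to 6373423). It was at 3.01, 2.67 and 3.16 FPKM in Control, and 10.9, 12.0 and 9.74 FPKM under TGF-β1. The mean increased 3.70-fold, or 1.59 in log2 units (SE 0.11, adjusted p 1.12e-04 by limma). The pseudogene Gm16074 and a U1 RNA gene lie within it on the same strand.

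Aldh1l2, which oxidizes the folate-bound carbon to carbon dioxide, lies on chromosome 10 (82950195 to 82996885) and was the least abundant of the 9 in Control. Its Control values were 2.27, 2.33 and 2.30 FPKM, close to each other and under 3 FPKM. The TGF-β1 values were 23.9, 28.1 and 23.7 FPKM. The mean rose 10.97-fold, to 25.2 ± 2.47 FPKM from 2.30 ± 0.0278 FPKM, or 2.99 in log2 units (SE 0.094, adjusted p 8.43e-06 by limma). This was the largest change of the 9, higher than that of 99.4% of all rows tested.

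Neither of the cytosolic folate enzymes of the set was called upregulated. Shmt1, the cytosolic counterpart of Shmt2, lies on chromosome 11 (60601606 to 60625220). It was at 7.99, 4.57 and 5.74 FPKM in Control, and 3.77, 3.23 and 2.83 FPKM under TGF-β1. The highest treated value was below the lowest control, but by less than the controls differed among themselves. The mean fell from 6.10 ± 1.74 to 3.28 ± 0.472 FPKM, or -0.71 in log2 units (SE 0.19, adjusted p 0.0244 by limma). The direction held in all 18 alternatives. The call was lost without Control replicate 3 (limma adjusted p 0.0565), without TGF-β1 replicate 2 (0.0629) and without TGF-β1 replicate 3 (0.0792), and over all alternatives the adjusted p was 0.0094 to 0.0792. Shmt1 overlaps Smcr8 by 184 bases and the snoRNA gene SNORA25 on the opposite strand.

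Mthfd1, which in the cytosol covers the reactions that Mthfd2 and Mthfd1l share out in mitochondria, lies on chromosome 12 (77356219 to 77420807). Its level was 10.7, 9.13 and 10.6 FPKM in Control, against 12.8, 10.7 and 10.6 FPKM under TGF-β1, and the groups overlapped. The log2 change was 0.14 (95% interval -0.12 to 0.41, limma adjusted p 0.316), an interval that lies below those of all 4 mitochondrial enzymes.

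**Figure D2:**
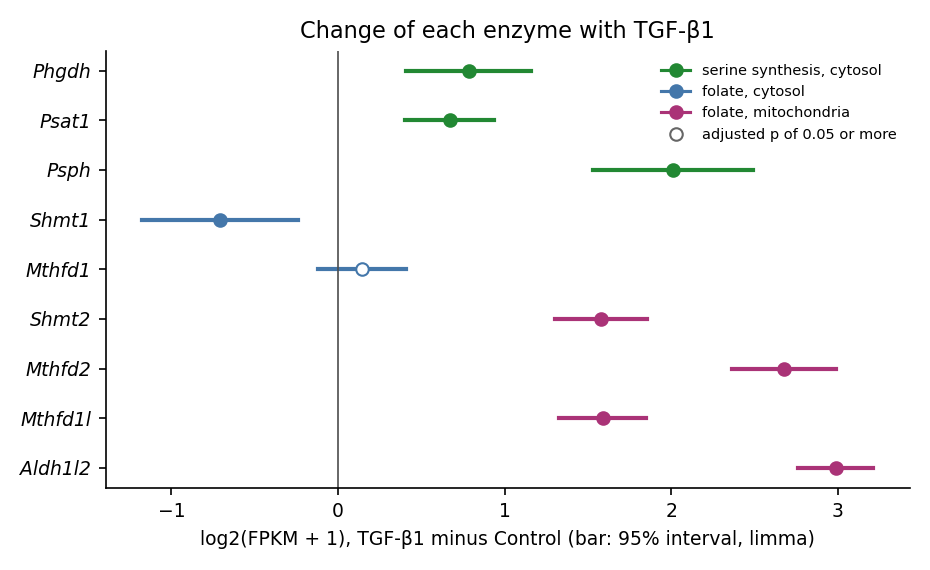
Change of each enzyme with TGF-β1, as the difference of mean log2(FPKM + 1) between 3 TGF-β1 and 3 Control libraries; bars are 95% intervals from limma and the open symbol marks an adjusted p of 0.05 or more. The 4 mitochondrial enzymes lie between 1.58 and 2.99, and the cytosolic folate enzymes at -0.71 and 0.14.

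Leaving out both replicate 2 libraries kept all 8 calls. The log2 changes were then 2.92 for Aldh1l2, 2.56 for Mthfd2, 1.67 for Shmt2 and 1.47 for Mthfd1l among the mitochondrial enzymes. In the serine branch they were 2.12 for Psph, 0.94 for Phgdh and 0.56 for Psat1. Shmt1 stood at -0.86 and Mthfd1, which was again not called, at 0.11.

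To compare the compartments directly, each mitochondrial enzyme was set against its cytosolic partner within the same library. A fold change common to both cancels in the FPKM ratio. On the log2(FPKM + 1) scale, which was the one tested, it cancels only in part where a partner is low. Shmt2 exceeded Shmt1 in every library. The ratio of their FPKM was 3.41, 5.96 and 3.70 in Control, against 21.0, 22.8 and 27.7 under TGF-β1. On the log2(FPKM + 1) scale the ratio rose by 2.29, from 1.91 ± 0.38 to 4.19 ± 0.16 (SD, n = 3, two-sided exact permutation p = 0.1). Shmt2 made up 80.6 ± 4.44% of the summed FPKM of the pair in Control and 95.9 ± 0.541% with TGF-β1.

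Mthfd2 was below Mthfd1 in every Control library and above it in every TGF-β1 library. The FPKM ratio was 0.529, 0.529 and 0.666 in Control, against 3.21, 4.02 and 4.11 under TGF-β1, a rise of 2.53 on the log2 scale (exact permutation p = 0.1). For Mthfd1l over the same partner the ratio was 0.280, 0.293 and 0.297 in Control, against 0.854, 1.12 and 0.921 under TGF-β1, a rise of 1.44 (exact permutation p = 0.1). The latter pair thus came to about equal levels in treated cells, with Mthfd1l above Mthfd1 in 1 of the 3 libraries. These comparisons share Mthfd1 and are not independent.

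The cytosolic partner of Aldh1l2, Aldh1l1, was barely measured, with 0.393, 1.18 and 0.410 FPKM in Control, against 0.803, 0.222 and 0.163 FPKM under TGF-β1, which is about 3 fragments or fewer per library. That row names a transcript of 400 bases that is not annotated as coding, so no ratio is read from it. Over the 4 pairs tested, p = 0.1 is the smallest value that 3 against 3 libraries allow in the exact permutation test, and it stayed at 0.1 after Benjamini-Hochberg adjustment. The treated and control ratios of the 3 pairs that are read did not overlap.

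**Figure D3:**
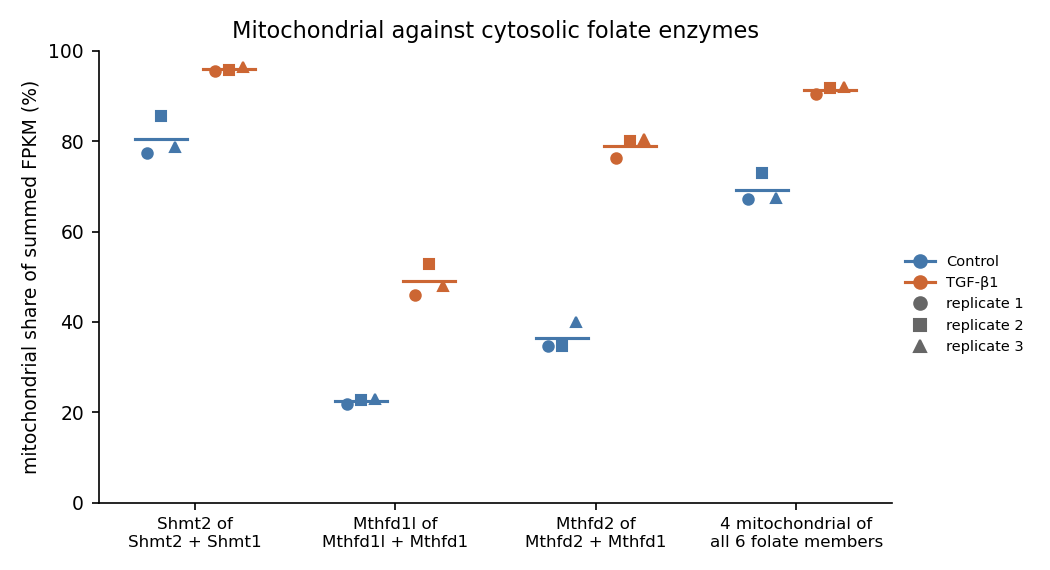
Share of the mitochondrial enzyme in the summed FPKM of a pair (%), in the 3 Control and 3 TGF-β1 libraries, with the share of the 4 mitochondrial enzymes in all 6 folate enzymes of the set at the right; bars are group means. Each share is higher in all 3 TGF-β1 libraries than in all 3 Control libraries, from 22.5% to 49.0% for Mthfd1l and from 36.4% to 78.9% for Mthfd2.

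Taking the 6 folate enzymes of the set together, the mitochondrial ones summed to 38.2, 37.1 and 33.8 FPKM in Control and to 155, 157 and 155 FPKM with TGF-β1. The cytosolic sum was 18.7, 13.7 and 16.4 FPKM in the controls and 16.5, 14.0 and 13.4 FPKM in treated cells. The mitochondrial share of the total was 69.2 ± 3.34% in Control and 91.4 ± 0.925% with TGF-β1. These sums describe the chosen enzymes and were not tested. Mthfd2l, a second mitochondrial dehydrogenase and cyclohydrolase, was not called. It was at 9.41, 8.36 and 8.93 FPKM in Control, and 8.51, 10.7 and 8.89 FPKM under TGF-β1 (log2 change 0.063, 95% interval -0.20 to 0.32, limma adjusted p 0.656), and its sign changed in 3 alternatives. In every Control library Mthfd2l was above Mthfd2, and in every treated library it was below.

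The order of the levels changed as well. In Control it ran from Phgdh through Psat1, Shmt2, Psph, Mthfd1, Shmt1, Mthfd2 and Mthfd1l to Aldh1l2. Psat1 and Shmt2, Shmt2 and Psph, and Shmt1 and Mthfd2 overlapped between libraries, and the other neighbors were apart. With TGF-β1 the order was Phgdh, Shmt2, Psph, Mthfd2, Psat1, Aldh1l2, Mthfd1, Mthfd1l and Shmt1, where Shmt2 and Psph, Mthfd2 and Psat1, and Mthfd1 and Mthfd1l overlapped. Among all tested rows the Control mean of Aldh1l2 lay at percentile 11.8 and its TGF-β1 mean at 69.6, and Mthfd2 went from 29.8 to 80.0. The 5721 changed genes were ranked into 5 equal classes of abundance within each group, from rank 1, the lowest, to rank 5. Aldh1l2 moved from rank 1 to rank 4, Mthfd2 from rank 2 to rank 4, Mthfd1l from rank 1 to rank 3, and Shmt2 and Psph from rank 4 to rank 5. Phgdh stayed in rank 5 and Psat1 in rank 4, and Shmt1 moved from rank 2 to rank 1. A move of 2 ranks upwards was made by 2.59% and of 3 ranks upwards by 0.542% of the changed genes.

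Promoter sequences were compared because 7 of the enzymes rose together and Shmt1 did not. RefSeq windows from 250 bases before to 50 bases after the start site (build GRCm38.p6, not the mm9 build of the expression table) were found for 8 of the 9 enzymes, with 2 windows for Psat1. Aldh1l2, which rose most of the 9, had no window, so its promoter was not read. None of the 9 windows held TGATGNAA (the element of ATF4 with a C/EBP partner), TGACGTCA (the element of CREB and ATF factors) or the E-box CACGTG, read on both strands. Over all 32851 windows these were found in 3.97%, 1.79% and 7.15%. The CCAAT box, a common promoter element and a motif that was chosen after the sequences were read, was present on one strand or the other in 6 of the 8 enzymes, against 41.1% of all genes with a window. It was present in Mthfd2 and in Shmt1 and was not found in Shmt2, so it did not separate the enzymes that rose from the one that fell. The windows of these 3 are shown for that comparison, in lower case with CCAAT or its reverse complement ATTGG in capitals.
Mthfd2 (chr6:83317555-83317854, minus strand): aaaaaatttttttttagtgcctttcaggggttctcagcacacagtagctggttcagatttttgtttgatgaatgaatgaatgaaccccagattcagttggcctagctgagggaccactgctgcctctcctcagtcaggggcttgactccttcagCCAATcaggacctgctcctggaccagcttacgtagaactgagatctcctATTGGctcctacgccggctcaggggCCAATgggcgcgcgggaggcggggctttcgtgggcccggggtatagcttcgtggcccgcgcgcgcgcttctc
Shmt2 (chr10:127522395-127522694, minus strand): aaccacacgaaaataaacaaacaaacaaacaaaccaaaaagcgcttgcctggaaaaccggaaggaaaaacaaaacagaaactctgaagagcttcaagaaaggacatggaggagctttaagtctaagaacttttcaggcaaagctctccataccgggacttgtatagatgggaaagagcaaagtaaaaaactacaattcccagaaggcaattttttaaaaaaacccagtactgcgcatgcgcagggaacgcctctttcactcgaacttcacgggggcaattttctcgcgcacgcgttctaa
Shmt1 (chr11:60811216-60811515, minus strand): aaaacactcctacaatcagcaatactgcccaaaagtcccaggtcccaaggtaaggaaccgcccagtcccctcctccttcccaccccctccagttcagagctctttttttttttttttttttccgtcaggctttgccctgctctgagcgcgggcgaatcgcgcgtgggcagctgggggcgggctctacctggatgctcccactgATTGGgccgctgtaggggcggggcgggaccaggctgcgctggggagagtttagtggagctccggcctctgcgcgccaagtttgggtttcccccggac
In Mthfd2 the matches began 96, 47 and 22 bases before the start site, and in Shmt1 the match began 47 bases before it. A match is a description of the letters and not a bound site.

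The steps that feed and use these enzymes were counted next, in gene lists chosen with results of these data in view. The share over all rows tested, against which each count is to be read, was 24.5% upregulated and 23.6% downregulated. Glycolytic genes that lead to and away from 3-phosphoglycerate were upregulated in 9 of 13 tested and not called in the other 4 (median log2 change 0.81). The largest rise was in Hk2, the hexokinase of insulin-responsive tissues, from 4.73 ± 0.374 to 38.6 ± 2.73 FPKM (log2 change 2.79). Pgk1 and Pgam1, which make and consume 3-phosphoglycerate and are named after their values were seen, had log2 changes of 1.76 and 1.52. Transporters of serine and other neutral amino acids were upregulated in 4 of 5 tested, and 1 was not called. Slc6a9, a glycine transporter, rose most, from 3.35 to 5.83 FPKM in Control to 19.3 to 22.4 FPKM with TGF-β1 (log2 change 1.99).

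The rest of folate metabolism was mixed. Of 11 other folate enzymes and carriers tested, 2 were upregulated (24.5% of all rows tested), 2 were downregulated (23.6%) and 7 were not called. The median log2 change of the 11 was 0.094. The upregulated count fell to 1 in 8 of 18 alternatives, among them those without Control replicate 3 and without TGF-β1 replicate 1, 2 or 3. Tyms, the thymidylate synthase that uses folate-bound carbon for DNA, had the largest rise, from 16.2, 16.2 and 11.7 FPKM to 24.3, 31.6 and 23.5 FPKM (log2 change 0.81). Folr1, a folate receptor of the cell surface, had the largest fall, from 42.2, 33.6 and 34.3 FPKM to 9.19, 10.6 and 10.7 FPKM (log2 change -1.75). Sfxn1, a carrier of serine into mitochondria that is named after its values were seen, fell from 24.2, 25.0 and 24.5 FPKM to 16.0, 20.1 and 16.8 FPKM (log2 change -0.46, limma adjusted p 0.0104). Slc25a32, the mitochondrial folate carrier, named likewise, was at 1.55 to 2.41 FPKM and 2.62 to 3.30 FPKM and was not called (log2 change 0.40, limma adjusted p 0.0623).

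Genes of glycine cleavage and of glycine or serine breakdown were mixed. Of 7 tested, 2 were upregulated and 2 downregulated (24.5% and 23.6% of all rows tested). The downregulated count fell to 1 without Control replicate 3 and without TGF-β1 replicate 1 or 2. Gcsh, the carrier protein of the glycine cleavage system, rose from 45.1 ± 2.67 to 77.5 ± 3.30 FPKM (log2 change 0.77). Gldc, the decarboxylase of that system and named after its values were seen, was at no more than 0.0825 FPKM in any library. Sdsl, annotated as a serine dehydratase-like gene, had the largest fall, from 1.58 to 4.69 FPKM in Control to 0.0965 to 1.48 FPKM (log2 change -1.21, limma adjusted p 0.0463). That call was lost in 8 alternatives, among them those without Control replicate 1 (limma adjusted p 0.124), without Control replicate 3 (0.127), without TGF-β1 replicate 1 (0.0891) and without TGF-β1 replicate 2 (0.106), and its adjusted p over all alternatives was 0.0026 to 0.127.

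In the methionine cycle and transsulfuration, 3 of 9 tested genes were upregulated and 2 downregulated (24.5% and 23.6% of all rows tested). The downregulated count fell to 1 in 12 of 18 alternatives, among them the omission of any single library other than Control replicate 1. Besides Cbs it rested on Ahcyl2 (limma adjusted p 0.0493), which is named after its values were seen. The enzymes that carry homocysteine to cysteine went in opposite directions. Cbs, which joins serine to homocysteine, fell from 8.23, 10.9 and 7.96 FPKM to 0.496, 0.720 and 0.341 FPKM (log2 change -2.72, limma adjusted p 6.65e-05). Cth, which releases cysteine in the next step, rose from 0.894, 0.504 and 0.459 FPKM to 7.05, 5.63 and 6.46 FPKM (log2 change 2.19, limma adjusted p 1.08e-04). Purine synthesis, a main consumer of formate, had 2 of 13 tested genes upregulated and 2 downregulated (24.5% and 23.6% of all rows tested). Its median log2 change was 0.032. The largest changes were in Atic, which uses a folate-bound carbon in the last steps (log2 change 0.90, limma adjusted p 0.00684), and in Paics, which does not (log2 change -0.92). Within replicates 1 and 3 alone both upregulated genes lost their call, Atic (limma adjusted p 0.0657) and Gart (0.0576), the latter named after its values were seen. The downregulated count fell to 1 in 7 of 18 alternatives, among them those without Control replicate 1 or 2 and without TGF-β1 replicate 1 or 3.

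**Figure D4:**
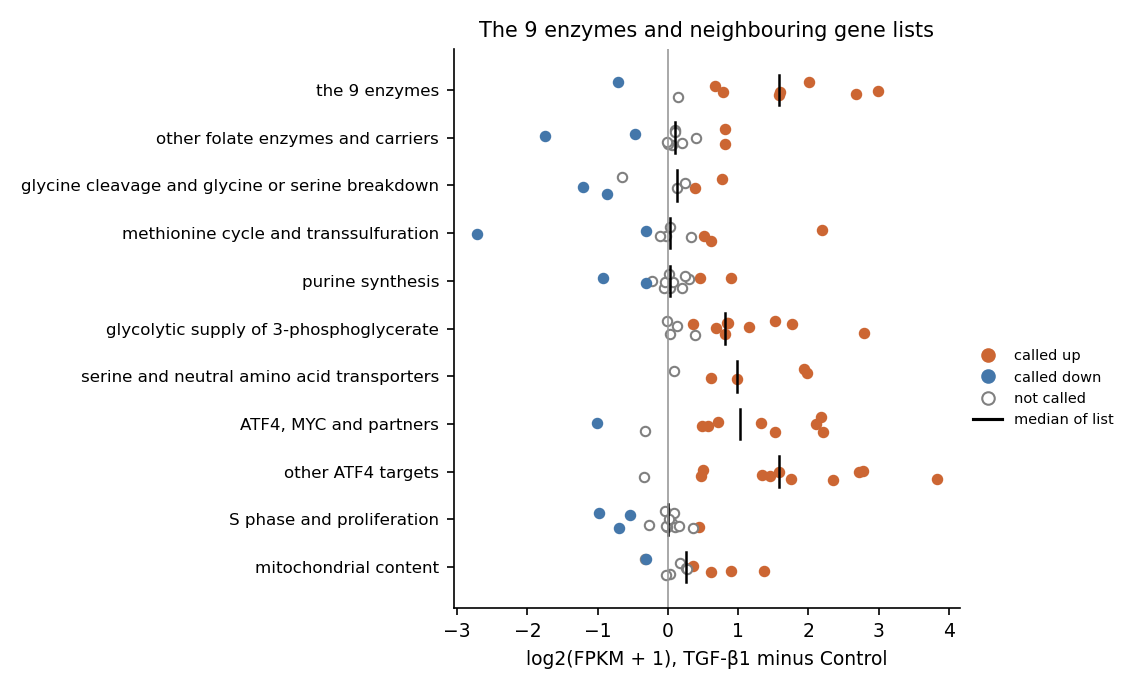
Change with TGF-β1 (difference of mean log2(FPKM + 1)) of every tested gene in the set of 9 enzymes and in 10 neighboring lists; filled symbols are genes called at an adjusted p under 0.05, orange up and blue down, and the black bar is the median of the list. The median is 1.58 for the 9 enzymes, 1.58 for the list named other ATF4 targets, 0.094 for other folate enzymes and 0.032 for purine synthesis. The lists were chosen with results of these data in view, and a role of ATF4 was not tested.

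ATF4, a transcription factor of the amino acid and integrated stress responses, is a known activator of several of these enzymes, as is MYC. Atf4 itself was at 120, 101 and 171 FPKM in Control, and 383, 357 and 369 FPKM under TGF-β1 (log2 change 1.53, limma adjusted p 0.00118). In the list of ATF4, MYC and partner factors, 8 of 10 tested genes were upregulated and 1 downregulated (24.5% and 23.6% of all rows tested). The largest rise was in Nupr1, a stress-induced cofactor (log2 change 2.21), and the fall was in Mycn (-1.01). Myc, named after its values were seen, rose from 7.49 ± 0.628 to 35.6 ± 3.47 FPKM (log2 change 2.11). Of 11 other ATF4 targets tested, 10 were upregulated and 1 was not called, with a median of 1.58 and the largest rise in Trib3, a pseudokinase of the stress response (log2 change 3.83). The gene not called, Slc7a11, is named after its values were seen. It was at 2.60 to 3.48 FPKM in Control and 2.11 to 2.46 FPKM with TGF-β1 (log2 change -0.34, limma adjusted p 0.0679). The first list had 5 upregulated genes within replicates 1 and 3 alone, and in the second 1 gene was downregulated without Control replicate 3.

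Genes of S phase and proliferation, the phase in which folate enzymes are in demand, were mostly not called. Of 14 tested, 1 was upregulated (24.5% of all rows tested), namely Mcm2, a subunit of the replicative helicase (log2 change 0.44). Another 3 were downregulated (23.6% of all rows tested) and 10 were not called. Tk1, the thymidine kinase of S phase, fell most, from 9.55, 9.70 and 9.80 FPKM to 3.00, 5.34 and 5.25 FPKM (log2 change -0.98). Among 11 tested genes of general mitochondrial proteins, 4 were upregulated and 1 was downregulated (24.5% and 23.6% of all rows tested). Their median log2 change was 0.25. The upregulated count was 3 to 4 over the 18 alternatives, and was 3 without Control replicate 1 or 2 or TGF-β1 replicate 1. Cycs, the electron carrier cytochrome c, rose most (log2 change 1.36) and Sdha, a subunit of succinate dehydrogenase, fell (-0.31). Among the 4 mitochondrial folate enzymes of the set, the smallest log2 change, 1.58 for Shmt2, was above that of all 11. Mthfd2l, a mitochondrial enzyme outside the set, had a log2 change of 0.063. Without Control replicate 3, the S phase list had 2 upregulated genes and the mitochondrial list 2 downregulated ones.

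Genes with profiles most like those of Phgdh and Mthfd2 were sought over the 6 libraries, by the root mean square difference of log2(FPKM + 1) centered on each gene's mean. For Phgdh these were Sac3d1 (0.0488) and Ung (0.0638), and for Mthfd2 they were Tmeff1 (0.0621), Jag1 (0.0847) and Tnfaip3 (0.0863).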

How the data were processed

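RNA was sequenced in 3 Control and 3 TGF-β1 libraries, grouped by their labels. After discarding reads of low quality, the authors aligned to mm9 with TopHat (TopHat2 2.0.11 in the submitters' processing notes) and estimated FPKM with Cufflinks. The deposited values are FPKM, with no scaling between libraries stated. The study used a count model, which FPKM do not allow. Rows averaging 1 FPKM or more were fitted by limma 3.58.1 in R 4.3.3, with a trend of the variance, after taking log2(FPKM + 1). Tests were two-sided, p-values were adjusted over every fitted row (Benjamini-Hochberg), and those under 0.05 were called. The fit was also run on simulated data with independent noise between libraries and far fewer changed rows than were called here. That run does not measure the errors in these data. The log2(FPKM + 1) scale understates changes of low genes.

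Depth was taken from whole-number steps of FPKM under 0.6 in genes with 1 transcript, with a fragment length of 200 bases assumed. In each library at least 99.4% of such values were within 0.1 of a whole number of fragments. Coordinates and overlaps come from GENCODE M1 (mm9). No source says if a row sums a gene or holds the transcript it names. Pairs were compared with exact permutation tests in scipy 1.17.1. The members and gene lists were chosen with earlier results of these data known. Named genes are the 9 enzymes, Aldh1l1, Mthfd2l, Atf4, the largest called rise and fall in each list, and the 3 genes most like Phgdh and Mthfd2, of which 1 is not reported here. Pgk1, Pgam1, Sfxn1, Slc25a32, Myc, Gldc, Ahcyl2, Gart and Slc7a11 lie outside this rule and were named after their values were seen. The same holds for the markers Cubn, Aqp1, Lrp2, Cd68, Csf1r, Foxd1 and Pdgfrb.

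Whether equal replicate numbers pair the libraries was checked by the correlation of deviations from the group means. It was 0.09, 0.23 and 0.09 for replicates 1, 2 and 3 over all tested rows, and 0.21, 0.42 and 0.15 over protein-coding rows of at least 300 bases. The numbers therefore passed a minimum of 0.1 in every pair only in the second set, and no source says what they mark.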

Additional observations from a re-analysis of the deposited data

How the results depend on the processing

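All 9 enzymes kept their direction in all 18 alternatives, and the 7 upregulated enzymes kept their call in each. The count of downregulated enzymes, 1 (Shmt1), became 0 with quantile normalization (limma adjusted p 0.0584) and 0 at an adjusted p under 0.01, and was 0 to 1 when single libraries were left out; the cause was not tested. Mthfd2l, which was not called, changed sign to -0.078 with the common sum and -0.068 in replicates 1 and 3 alone, and ranged from -0.028 (without TGF-β1 replicate 2) to 0.123 when single libraries were left out. At an adjusted p under 0.01, 3672 of all rows changed and 1727 were downregulated, by construction of a stricter threshold. With a replicate block the enzymes had 8 calls, all rows 5391 and the neighboring lists 56 in place of 58. Ahcyl2 lost its call there, and no other call of a named gene changed. Downregulated genes went from 2 to 1 in both the methionine and the purine list and from 2 to 3 in the glycine list. The counts of the folate, glycine, methionine and purine lists are small and moved with single libraries, as given with each. With the common sum, other ATF4 targets had 9 calls up and 1 down, and glycolysis 8 up. The ratios of Shmt2 to Shmt1 and of Mthfd2 and Mthfd1l to Mthfd1 kept their direction in the 13 alternatives run for them. Aldh1l1 was too low for a comparison at this depth.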

Other observations

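Within the Control group the enzymes did not all vary in the same direction. Control replicate 3 had the lowest value of the 3 controls for Phgdh, Psph and Shmt2 and the highest for Psat1, Mthfd2 and Mthfd1l. Psph and Shmt1 varied most between controls, with coefficients of variation of 27.0% and 28.5%, and Aldh1l2 least, with 1.21%. With TGF-β1 the coefficient was 3.18% for Mthfd2, 3.74% for Shmt2 and 5.10% for Psph, below that of each of these enzymes in Control. It was also below Control for Phgdh, Psat1 and Shmt1. For Aldh1l2 (9.81%), Mthfd1l (10.5%) and Mthfd1 (10.8%) it was above Control. With 3 libraries per group these spreads were not tested.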
